A study of Mus musculus with 27 samples.

Results

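The 15 single gastruloids of the study are compared here, 5 grown from mouse embryonic stem cells (mESCs) that never saw 2i medium against 10 grown from mESCs that received a pulse of it. They were chosen by the condition number in the sample labels, and they make up 15 of the 27 samples of the series. The other samples are plates of mESCs and are not analysed here. All 15 came from the B6 line, a wild-type hybrid of the 129S1/SvImJ and C57BL/6 strains. Condition 1 was pre-cultured in ESLIF, medium with serum and leukaemia inhibitory factor (LIF). Condition 5 received 48 h of 2i and then 48 h of ESLIF, and condition 6 received 24 h of 2i and then 24 h of ESLIF. The 2i medium holds LIF with inhibitors of the kinases GSK3 and MEK. All 3 groups were therefore in ESLIF when they were aggregated, and all were exposed to the same pulse of the Wnt activator chiron and collected 120 h after aggregation. Conditions 5 and 6 are called pulsed gastruloids below.

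Gastruloids are aggregates of mESCs that break symmetry, elongate and form derivatives of the 3 germ layers without extraembryonic tissue. Their posterior end holds neuromesodermal progenitors (NMPs), which can give rise either to spinal cord or to the presomitic mesoderm, and presomitic cells pass a differentiation front to become somites. Cells that copy their DNA are in S phase and cells that prepare to divide or divide are in G2M, while G1 lies between division and the next S phase. Early embryonic cells cycle fast and have a short G1.

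Each gastruloid was dissociated on its own and sorted into 1 plate with 384 wells, and its cells were profiled by CEL-seq2, a single-cell method in which transcripts carry molecular identifiers. The deposited table lists 4637 cells, 261 to 348 per gastruloid, with the cell type, cell cycle phase, S score, G2M score, total counts, detected genes and mitochondrial share of each cell. The median counts of a gastruloid lay between 7109.5 and 10467 for condition 1 and between 7537 and 12135.5 for the pulsed gastruloids. No gene values were used, so the names of the cell types and the effect of 2i could not be checked against marker genes. The gastruloid and its plate are the same unit, and in the plate numbers of the labels condition 5 took plates 4 to 8, condition 1 plates 9 to 13 and condition 6 plates 1 to 3, 14 and 15. Pulsed plates lay on both sides of those of condition 1, but conditions 1 and 5 each took an unbroken run of numbers. A batch that followed the plate numbers could therefore not be told apart from condition. The labels do not say whether the numbers give the order of processing. The labels name no separate mESC cultures for the gastruloids of a condition, so p-values measure the spread between gastruloids, which may all come from 1 culture per condition. Shares are relative: a lower share of 1 type and a higher share of the others cannot be told apart.

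Within the ectoderm, pulsed gastruloids held mostly progenitors, while ESLIF gastruloids also held many Spinal Cord cells. Of the 11 shares tested within lineages, 4 (36.4%) were called, and 3 of these were ectoderm shares. The deposited ectoderm layer joins NMP/Caudal Epiblast cells, Spinal Cord cells and Neural Crest cells, and all 3 ectoderm calls rest on that placing of the NMPs, which can also form mesoderm. With NMPs counted as mesoderm the pulsed gastruloids kept 0 to 6 ectoderm cells each, too few for an ectoderm share, and NMP/Caudal Epiblast cells were 21.0% ± 11.6 (SD, n = 5) and 11.2% ± 4.50 (SD, n = 10) of the mesoderm (p = 0.165, exact rank-sum test). The Spinal Cord share of all cells, given below, does not use the layer. The layer held 557 cells in condition 1 and 325 cells in the pulsed gastruloids. Spinal Cord cells were 40.3% of ectoderm cells in gastruloid 1A, 30.1% in 1B, 39.1% in 1C, 97.8% in 1D and 35.7% in 1E. In the 10 pulsed gastruloids the lowest Spinal Cord share was 0%, the median 8.50% and the highest 19.4%. The groups did not overlap, and the condition 5 mean of 5.33% and the condition 6 mean of 12.0% both lay under every condition 1 value. The difference, 48.6% ± 27.8 (SD, n = 5) against 8.69% ± 6.98 (SD, n = 10), was the most extreme that these numbers of gastruloids allow (two-sided exact rank-sum test of Wilcoxon, p = 0.000666, the smallest p possible, and 0.00733 after Bonferroni correction for 11 tests).

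NMP/Caudal Epiblast cells, the progenitors, gave nearly the mirror image, since Neural Crest cells were few. They were 59.7% of ectoderm cells in 1A, 67.1% in 1B, 59.4% in 1C, 1.10% in 1D and 61.6% in 1E, and between 80.6% and 100% in the pulsed gastruloids, with a median of 91.5%. Again no pulsed gastruloid overlapped with condition 1 (p = 0.000666, exact rank-sum test). Gastruloid 1D stood apart: 178 of its 182 ectoderm cells were Spinal Cord (95% Wilson interval 94.5% to 99.1%) and 2 were NMP/Caudal Epiblast. Without 1D, condition 1 was tight, with 36.3% ± 4.55 (SD, n = 4) Spinal Cord and 61.9% ± 3.59 (SD, n = 4) NMP/Caudal Epiblast cells, and the pulsed minus condition 1 difference in Spinal Cord was -27.6 percentage points in place of -39.9. As a share of all cells, NMP/Caudal Epiblast cells were 15.2% ± 9.66 (SD, n = 5) in condition 1 and 9.69% ± 4.08 (SD, n = 10) in the pulsed gastruloids (p = 0.165, exact rank-sum test). The difference was -5.53 percentage points, -9.17 without 1D (condition 1 18.9% ± 6.02, SD, n = 4, p = 0.0140, exact, not past the corrected threshold) and -2.96 without 1C.

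Neural Crest cells, named Neural Tube Progenitors in the deposited table, were seen in ESLIF gastruloids alone, but rest on 9 cells. Gastruloid 1A had none, 1B, 1C and 1D had 2 each and 1E had 3. The pulsed gastruloids had 0 of 3108 cells, which allows a share of up to 0.0965%. The difference in ectoderm cells, 1.62% ± 1.15 (SD, n = 5) against 0%, passed the corrected threshold narrowly (exact rank-sum test, p = 0.00366, Bonferroni 0.0403), and the call was lost when any 1 gastruloid other than 1A was left out (p up to 0.0110, exact). On a log-ratio scale with a pseudocount of 0.5 cells the ectoderm share of Neural Crest gave p = 0.572 (exact), and the pulsed gastruloids had only 13 to 54 ectoderm cells each.

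**Figure D1:**
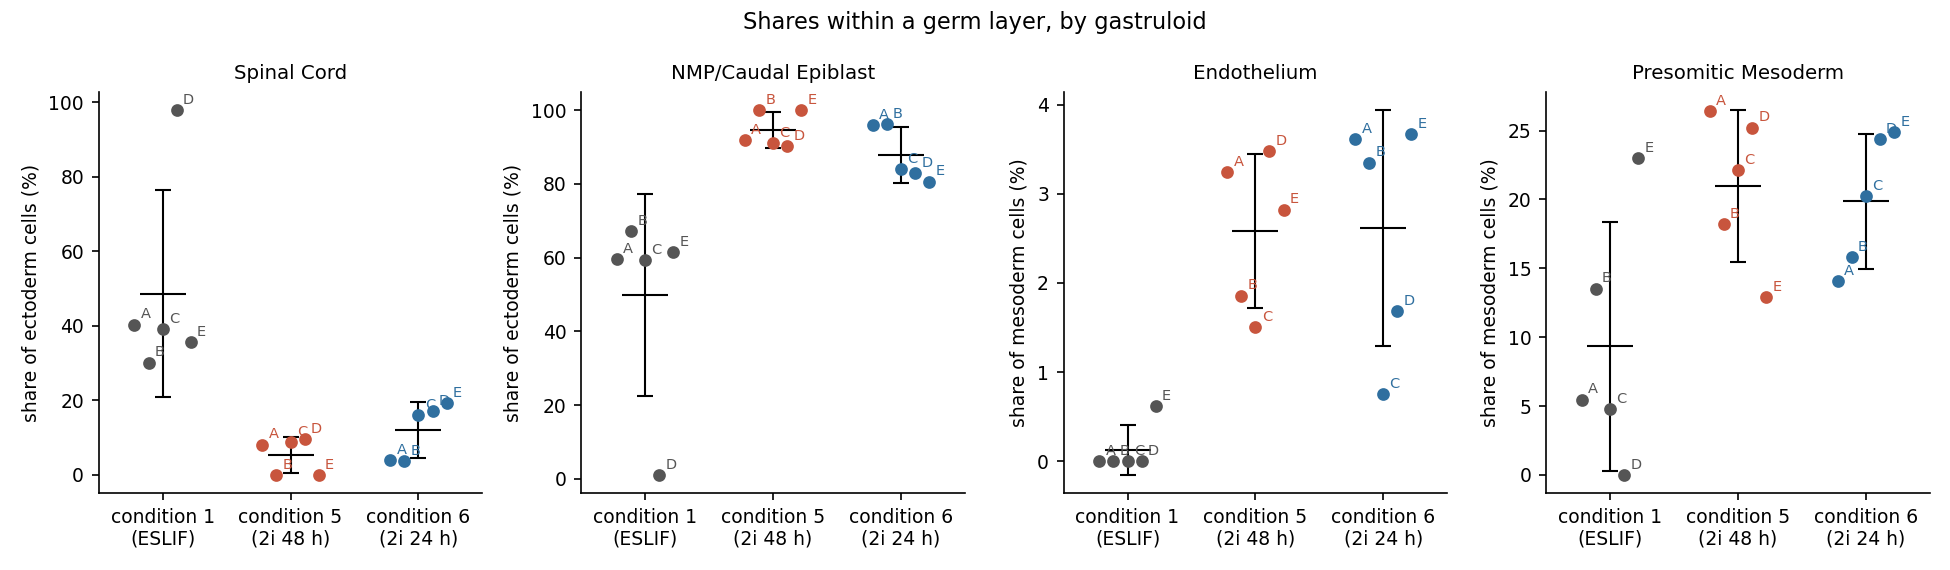
Points are single gastruloids, labelled A to E, and the y axes give a type's share of the ectoderm or mesoderm cells of its gastruloid in percent, and bars show mean and SD (n = 5 per condition). Spinal Cord and NMP/Caudal Epiblast shares of all 10 pulsed gastruloids lie outside the condition 1 range, with 1D at 97.8% and 1.10%, whereas Presomitic Mesoderm shares overlap through 1E at 23.0%.

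Within the mesoderm, the one type that differed by the corrected test was Endothelium, deposited under the name Haemogenic, the cells that line vessels and can give rise to blood. The mesoderm layer held 736 cells in condition 1, with only 39 in 1D, and 199 to 269 cells in each pulsed gastruloid. Endothelium was 0% of mesoderm cells in 1A, 1B, 1C and 1D and 0.621% in 1E, where it was 1 cell of 161. Pulsed gastruloids ranged from 0.749% in 6C to 3.67% in 6E with a median of 3.03%, and all 10 lay above the condition 1 values. The means were 0.124% ± 0.278 (SD, n = 5) and 2.60% ± 1.05 (SD, n = 10, exact rank-sum test, p = 0.000666, Bonferroni 0.00733). Counting error is large at these numbers: the interval of 1E, 0.110% to 3.43%, spans that of 6C, 0.206% to 2.69%, and 0 of 39 cells in 1D allows a share of up to 7.69%. Conditions 5 and 6 gave near equal means of 2.58% and 2.61%.

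The other mesoderm types did not pass. Presomitic Mesoderm, the unsegmented tissue that feeds the somites, was 5.46% of mesoderm cells in 1A, 13.5% in 1B, 4.79% in 1C, 0% in 1D and 23.0% in 1E. The pulsed gastruloids had 12.9% to 26.4% with a median of 21.2%, and 1E sat within their range. The means were 9.35% ± 9.04 (SD, n = 5) and 20.4% ± 4.95 (SD, n = 10, exact rank-sum test, p = 0.0280, Bonferroni 0.308). Somite cells were 42.6% ± 11.1 (SD, n = 5) of the mesoderm in condition 1 and 34.4% ± 15.1 (SD, n = 10) in the pulsed gastruloids (p = 0.371, exact), and this difference of -8.25 percentage points was -3.52 without 1D and turned to 1.37 without 1D, 6A and 6B. Early Somite cells were 32.3% ± 5.16 (SD, n = 5) and 28.4% ± 15.7 (SD, n = 10, p = 0.129, exact), and Differentiation Front cells 15.6% ± 6.25 (SD, n = 5) and 14.2% ± 5.48 (SD, n = 10, p = 0.679, exact), a difference of -1.39 points that was -4.01 without 1D and 0.0220 without 1B. Somite and Early Somite cells together were 75.0% ± 13.1 (SD, n = 5) and 64.5% ± 8.97 (SD, n = 10) of the paraxial cells, the mesoderm without Endothelium (p = 0.0992, exact), with a difference of -10.5 points, or -5.54 without 1D.

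The share of Early Somite cells among somitic cells had a lower mean than condition 1 in condition 5 and, through gastruloids 6A and 6B, a higher one in condition 6. Early Somite cells averaged 43.5% ± 6.22 (SD, n = 5) of all somitic cells (Somite plus Early Somite) in condition 1. The mean was 32.1% in condition 5 and 57.6% in condition 6, where 6A had 68.9%, 6B 89.7% and the other 3 averaged 43.2% ± 7.08 (SD, n = 3), close to condition 1. The lowest pulsed value was 16.2% in 5E and the highest 89.7% in 6B, while condition 1 ranged only from 35.1% to 49.6%. Joined, the pulsed gastruloids had 44.9% ± 21.1 (SD, n = 10, p = 0.679, exact rank-sum test). Without 6A and 6B, Early Somite cells were 21.4% ± 5.36 (SD, n = 8) of the mesoderm in the pulsed gastruloids, a difference of -10.9 percentage points from condition 1 (p = 0.00622, exact, not past the corrected threshold), where all 10 gave -3.90 points.

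The deposited clusters show where these gastruloids part. Somite and Early Somite each consist of a larger and a smaller cluster. The smaller Early Somite cluster, 254 cells in all, had 0 cells in condition 1 and 4 in condition 5, and 236 of its cells (92.9%) came from 6A and 6B, in which it was 63.9% and 82.9% of somitic cells. The smaller Somite cluster took 8.74% ± 6.64 (SD, n = 5) of the somitic cells of ESLIF gastruloids, 32.0% ± 21.9 (SD, n = 5) of those of condition 5, with 64.9% in 5E, and 15.9% ± 9.05 (SD, n = 5) of those of condition 6. A cluster whose cells come mostly from 6A and 6B cannot be told apart from their plates, numbers 2 and 1.

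**Figure D2:**
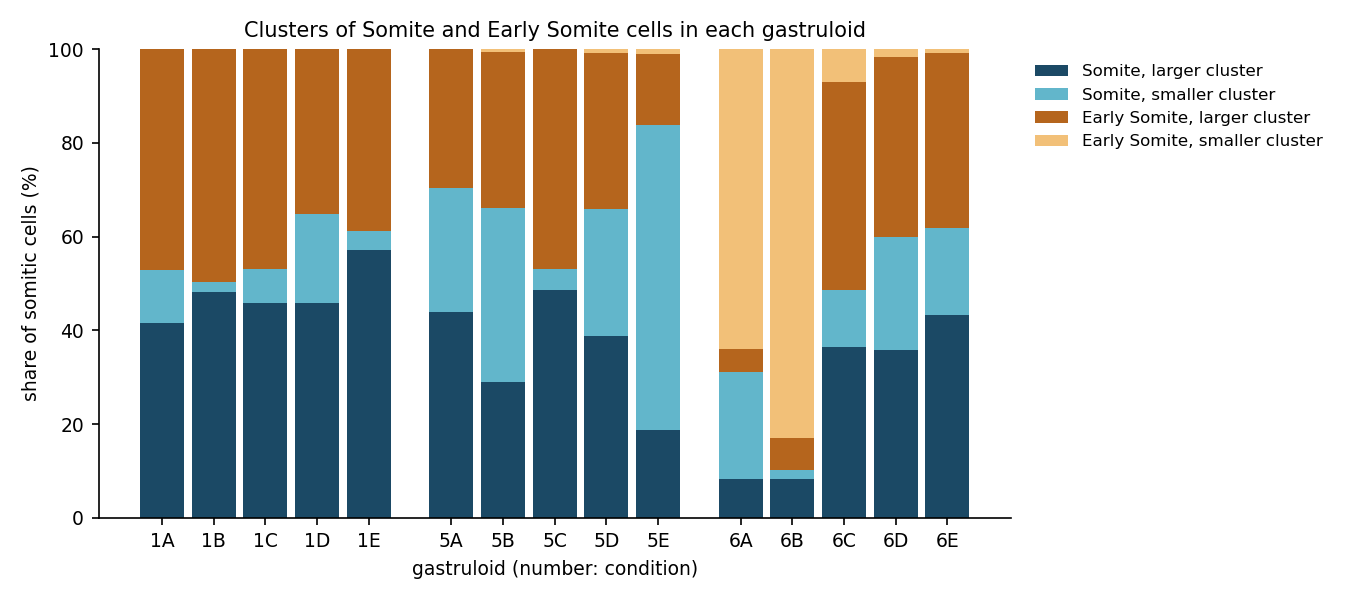
Stacked bars give, for each of the 15 gastruloids on the x axis, the percent of somitic cells in each of the 4 deposited Somite and Early Somite clusters. The smaller Early Somite cluster fills 63.9% and 82.9% of the bars of 6A and 6B and is absent from condition 1, and the smaller Somite cluster reaches 64.9% in 5E.

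The spread of the mesoderm makeup did not separate the groups. For each gastruloid the Bray-Curtis distance to the average of its 4 fellow gastruloids was taken, which is 0 for equal shares and 1 for no shared type. It was 0.141 ± 0.0730 (SD, n = 5) in condition 1 and 0.168 ± 0.0906 (SD, n = 10) in the pulsed gastruloids (p = 0.679, exact rank-sum test). Condition 5 averaged 0.130 and condition 6 averaged 0.207. Without 6A and 6B the difference turned from 0.0271 to -0.0261 (p = 0.622, exact), and it also turned without 1A, 1C or 6B alone. These distances share gastruloids and are not fully independent.

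The deposited endoderm layer, Endoderm plus Allantois cells, was small. Endoderm cells were 48.5% ± 19.7 (SD, n = 5) of it in condition 1 and 66.1% ± 15.9 (SD, n = 8) in the pulsed gastruloids with at least 10 such cells, and the ranges of 31.8% to 79.3% and 40.0% to 91.7% overlapped (p = 0.0862, exact rank-sum test). Pulsed gastruloid 5C had 5 and 6C had 3 endoderm-layer cells and were left out of this share. The share rests on the deposited placing of Allantois in this layer, while the paper names Tbx4 as a mesodermal allantois marker. With Allantois counted as mesoderm, the layer holds Endoderm cells alone and no such share can be taken.

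As shares of all cells, 3 of the 11 types (27.3%) were called, and 5 had an unadjusted p under 0.05. Spinal Cord cells were 7.21% to 58.9% of all cells in condition 1 with a median of 12.7%, and 0% to 1.90% in the pulsed gastruloids. Their means, 20.7% ± 21.7 (SD, n = 5) and 0.947% ± 0.701 (SD, n = 10), differed by -19.8 percentage points, and by -10.2 without 1D (exact rank-sum test, p = 0.000666 with all gastruloids). Endothelium rose from 0.0635% ± 0.142 (SD, n = 5) to 1.96% ± 0.779 (SD, n = 10, p = 0.000666, exact) and Neural Crest fell from 0.588% ± 0.352 (SD, n = 5) to 0% (p = 0.00366, exact). Presomitic Mesoderm, 5.30% ± 4.94 (SD, n = 5) against 15.5% ± 3.53 (SD, n = 10), and Allantois, 3.73% ± 1.22 (SD, n = 5) against 1.27% ± 0.806 (SD, n = 10), each missed the corrected threshold by little (p = 0.00466, exact, Bonferroni 0.0513).

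Cell types differed widely in cell cycle phase. The deposited phase follows from both scores in all 4637 cells, with G1 where neither is above 0 and otherwise the phase with the higher score. Over all gastruloids, G1 took 45.2% of 62 Endothelium cells, 64.6% of 96 Allantois cells and all 9 Neural Crest cells, but at most 10.4% of the cells of any other type. NMP/Caudal Epiblast cells had the lowest G1 share, 0.945%, with 64.8% in S, and Spinal Cord cells had 4.07% in G1, 52.0% in S and 43.9% in G2M. Allantois cells also had a median mitochondrial share of 0.343%, far under the 4.61% to 5.47% of the other types, and few counts (median 5287.5). With all cell types pooled, phase also moved with depth. In all 15 gastruloids, cells in G2M had 1.47 to 2.51 times the median counts of cells in G1. This ratio did not separate cell types, and Allantois cells, with few counts, were mostly in G1. The highest ratio came from 1A, where G1 held only 2.91% of 309 cells. The part of cell type in this ratio and the part of depth in the phase of a cell were not tested.

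**Figure D3:**
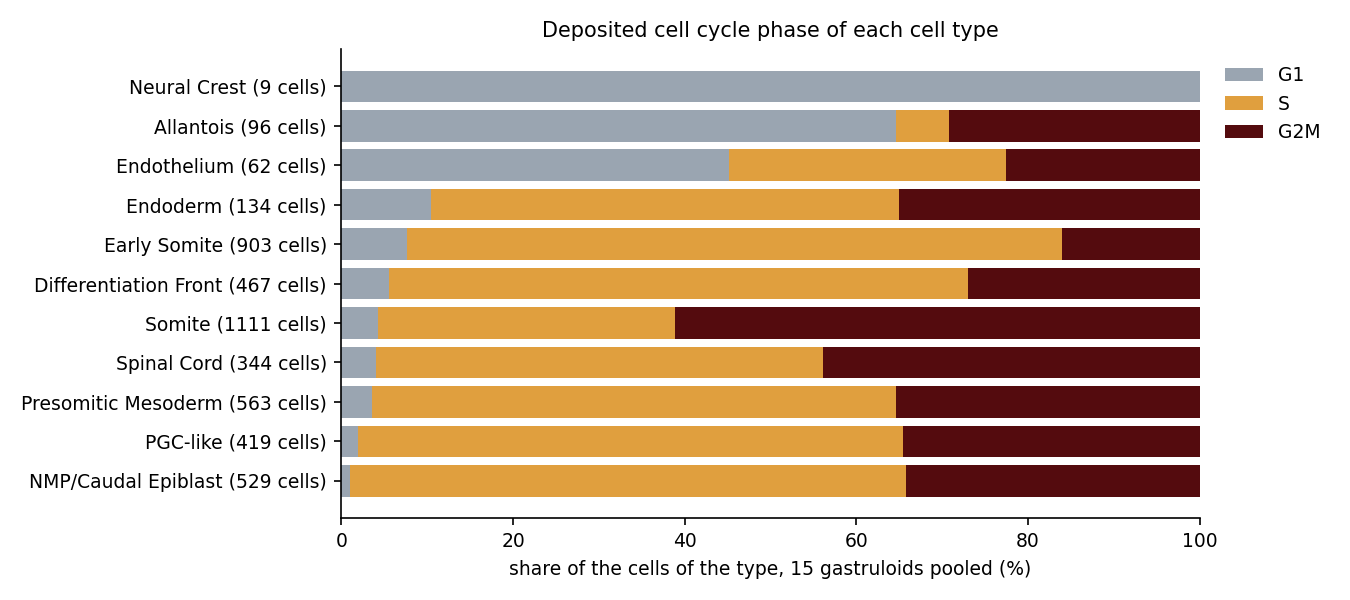
Horizontal bars give the percent of the cells of each type in the deposited G1, S and G2M phases, with all 15 gastruloids pooled and the number of cells in brackets. Neural Crest, Allantois and Endothelium have G1 shares of 100%, 64.6% and 45.2%, the other types at most 10.4%, and Somite (61.1% G2M) and Early Somite (76.3% S) stand at opposite ends of the cycling types.

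Inside a cell type, no phase share passed the corrected threshold between ESLIF and pulsed gastruloids. Somite, Early Somite, Differentiation Front and NMP/Caudal Epiblast had at least 10 cells in enough gastruloids to be tested, the latter 2 without 1D. Of 12 phase shares, 0 (0%) were called by the exact rank-sum test with Benjamini-Hochberg adjustment, 2 had an unadjusted p under 0.05, and a permutation test of means called 1, the S share of Early Somite cells. That share and the G2M share of the same cells had the smallest p-values.

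Early Somite cells were 85.1% in S phase in 1A, 88.1% in 1B, 80.8% in 1C, 100% in 1D, which had 13 such cells, and 92.1% in 1E. In condition 5 S phase held 86.5% in 5A, 78.7% in 5B, 69.8% in 5C, 85.7% in 5D and 77.4% in 5E, and in condition 6 it held 63.7% in 6A, 67.2% in 6B, 68.8% in 6C, 77.1% in 6D and 78.8% in 6E. Thus 8 of 10 pulsed gastruloids, all 5 of condition 6 among them, lay under the lowest condition 1 value, while 5A and 5D overlapped. The means were 89.2% ± 7.32 (SD, n = 5) and 75.4% ± 7.74 (SD, n = 10, exact rank-sum test, p = 0.00799, adjusted p = 0.0959). The difference was past the threshold when 5A or 5D was left out, and for condition 6 alone (-18.1 percentage points, p = 0.00794, the smallest possible for 5 against 5, exact). At that p a share passes the adjustment only together with another as small. Here this was the G2M share of the same cells, which is not independent of their S share.

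The G2M share of Early Somite cells was higher in most pulsed gastruloids. It was 0% to 10.4% in condition 1 with a median of 5.77%, 8.11% to 20.8% in condition 5 and 11.5% to 28.2% in condition 6, and 6 of 10 pulsed gastruloids exceeded every condition 1 value. Means were 5.56% ± 4.33 (SD, n = 5) and 15.9% ± 7.99 (SD, n = 10, p = 0.0193, exact, adjusted p = 0.116). The mean G2M score of these cells did not separate the groups. It was -0.00363 ± 0.00596 (SD, n = 5) and -0.000815 ± 0.00739 (SD, n = 10, p = 0.859, exact rank-sum test). Phase goes to the higher of both scores, so a G2M share can also change with the S score, given below. The G1 share was 5.24% ± 5.24 (SD, n = 5) and 8.71% ± 3.08 (SD, n = 10, p = 0.206, exact). Without 6A and 6B the S share difference was -11.4 points (p = 0.0186, exact) and the G2M share difference 7.37 points (p = 0.0451, exact). In the larger Early Somite cluster, which all gastruloids hold, S phase held 89.2% ± 7.32 (SD, n = 5) of the cells of condition 1, 79.2% ± 6.92 (SD, n = 5) of those of condition 5 and 70.1% ± 9.63 (SD, n = 4) of those of condition 6.

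**Figure D4:**
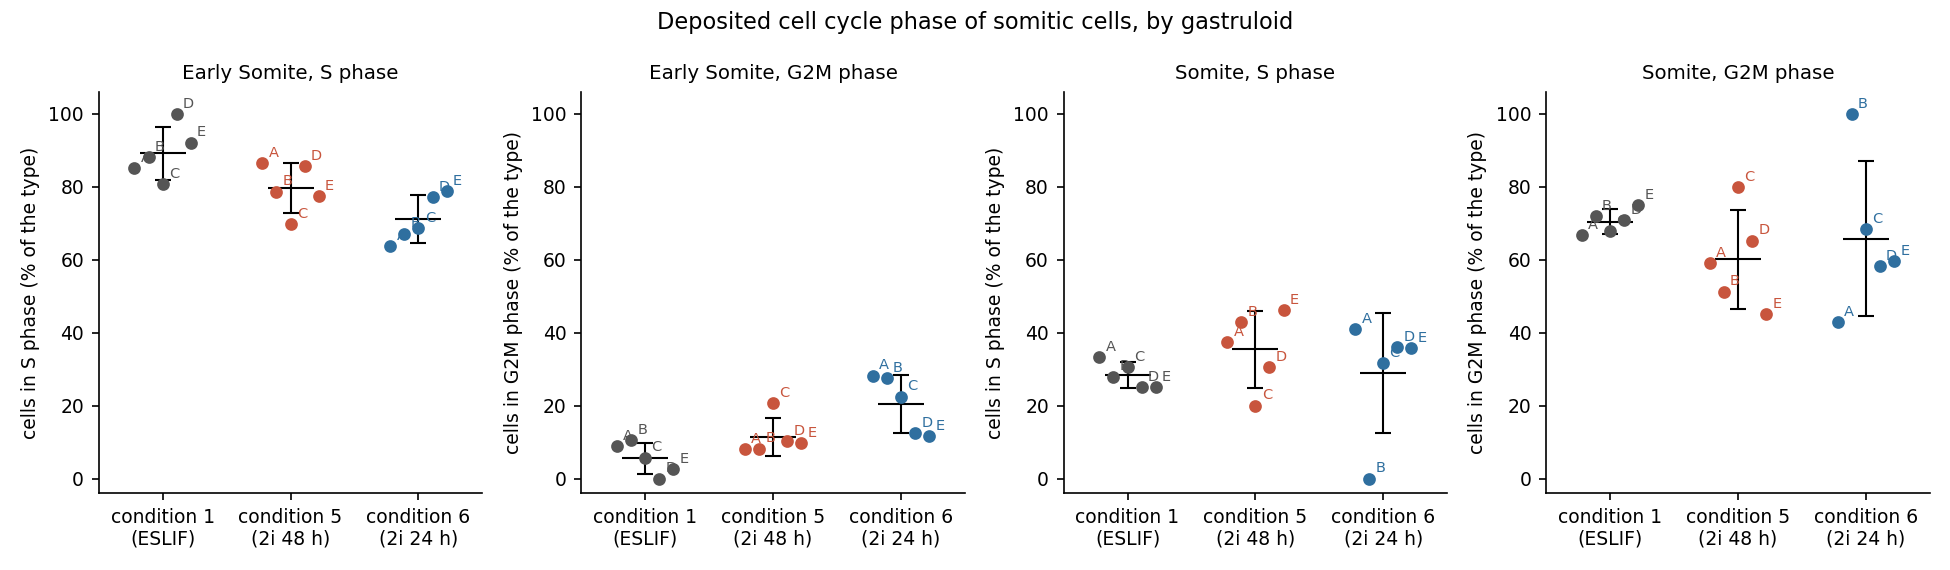
Points are single gastruloids, labelled A to E, and the y axes give the percent of Early Somite or Somite cells in S or G2M phase, with mean and SD as bars (n = 5 per condition). Early Somite S shares run from 80.8% to 100% in condition 1 and from 63.7% to 78.8% in condition 6, while Somite G2M shares lie close together in condition 1 (66.7% to 75.0%) and far apart in the pulsed gastruloids (42.9% to 100%, the latter from 15 cells in 6B).

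Somite and Early Somite are themselves divided by phase. In all 15 gastruloids the G2M share was higher among Somite than among Early Somite cells, by 14.6 to 72.5 percentage points with a median of 55.1, and the median counts were 1.02 to 1.74 times as high. Name and phase are therefore not separate measures in these cells. With both taken as 1 type, S phase held 54.4% ± 3.30 (SD, n = 5) in condition 1 and 52.3% ± 4.50 (SD, n = 10) in the pulsed gastruloids (p = 0.440, exact rank-sum test), and G2M held 42.5% ± 3.75 (SD, n = 5) and 41.2% ± 5.84 (SD, n = 10, p = 0.594, exact). Their G1 share was 3.10% ± 2.44 (SD, n = 5) and 6.43% ± 2.41 (SD, n = 10, p = 0.0193, exact, adjusted p = 0.174).

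The phase of Somite cells spread more widely over pulsed than over ESLIF gastruloids, a difference in spread that was not tested. Their G2M share was 66.7% in 1A, 72.1% in 1B, 67.8% in 1C, 70.8% in 1D and 75.0% in 1E. Pulsed gastruloids ranged from 42.9% in 6A to 100% in 6B, which had 15 Somite cells, with a median of 59.3%. The means were 70.5% ± 3.35 (SD, n = 5) and 63.0% ± 17.0 (SD, n = 10, p = 0.129, exact rank-sum test). Without 6B the pulsed mean was 58.9% ± 11.7 (SD, n = 9). Both Somite clusters differed in phase: G2M held 75.9% ± 2.74 (SD, n = 5) of the larger cluster in condition 1 and 81.3% ± 11.7 (SD, n = 10) in the pulsed gastruloids, but 35.1% ± 10.99 (SD, n = 8) of the smaller one in the pulsed gastruloids, where that cluster took a larger share. Among cells between the lower and upper quartile of the counts of their type, the G2M share of Somite cells was 71.6% ± 7.69 (SD, n = 5) and 54.5% ± 10.4 (SD, n = 9), which passed the threshold (p = 0.00400, exact, adjusted p = 0.0360). Gastruloid 6B, with 3 such cells, dropped out, and without it the difference over all Somite cells was already -11.6 percentage points in place of -7.50 (p = 0.0420, exact), against -17.1 between the quartiles.

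In Differentiation Front cells, which leave the presomitic state, S phase held 65.4% ± 9.31 (SD, n = 4) in condition 1 and 66.8% ± 9.11 (SD, n = 10) in the pulsed gastruloids (p = 0.865, exact rank-sum test). In NMP/Caudal Epiblast cells it held 61.2% ± 5.15 (SD, n = 4) and 67.2% ± 9.93 (SD, n = 10, p = 0.240, exact), and G2M held 38.1% ± 5.02 (SD, n = 4) and 31.1% ± 8.18 (SD, n = 10, p = 0.142, exact). The groups overlapped in each of these shares.

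The cell cycle scores, unitless values per cell as deposited, gave 0 calls in 8 tests (0%) by the rank-sum test and 0 by the permutation test of means, with 1 unadjusted p under 0.05. The mean G2M score of NMP/Caudal Epiblast cells was 0.0232 in 1A, 0.0225 in 1B, 0.0241 in 1C and 0.0298 in 1E. In the pulsed gastruloids it ran from 0.0105 in 5B to 0.0282 in 6B with a median of 0.0171, and 8 of 10 were under the lowest condition 1 value (means 0.0249 ± 0.00333, SD, n = 4, and 0.0186 ± 0.00517, SD, n = 10; exact rank-sum test, p = 0.0240, adjusted p = 0.192). This difference was called without 6B. The mean S score of Early Somite cells ran from 0.0362 in 1C to 0.0607 in 1D in condition 1 with a median of 0.0538, and from 0.0325 in 6C to 0.0533 in 6E in the pulsed gastruloids, all 10 of which were under that median. Means were 0.0522 ± 0.00938 (SD, n = 5) and 0.0425 ± 0.00667 (SD, n = 10, p = 0.0553, exact, adjusted p = 0.221), and without 1C this difference was called.

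Counts, genes and mitochondrial share per cell also gave 0 calls in 12 tests (0%) by the rank-sum test and 0 by the permutation test of means, with 2 unadjusted p under 0.05. Median counts were higher in the pulsed gastruloids in all 4 types, by 726.8 to 1463.2 counts, without passing (p = 0.310 to 0.839, exact). Without 6A and 6B these differences shrank to between 91.2 counts in Differentiation Front and 864.5 in Somite cells, and leaving out 6B alone took Differentiation Front from 726.8 to 217.4, 1D alone took Somite from 1463.2 to 913.7, 6B alone took Early Somite from 933.6 to 607.4 and 1C alone took NMP/Caudal Epiblast from 1056.8 to 558.2. The mitochondrial share was lower in the pulsed gastruloids in all 4 types. In Somite cells its median was 5.40% in 1A, 5.47% in 1B, 5.19% in 1C, 6.94% in 1D and 5.88% in 1E, against 4.91% to 5.42% in condition 5 and 4.20% to 4.95% in condition 6. All 5 condition 6 values lay under those of condition 1, while 4 of 5 condition 5 values lay within its range. Means were 5.78% ± 0.699 (SD, n = 5) and 4.89% ± 0.441 (SD, n = 10, exact rank-sum test, p = 0.0127, adjusted p = 0.152), and the difference passed without 1C and for condition 6 alone.

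Early Somite cells had 5.56% to 6.95% in condition 1 and 4.54% to 6.03% in the pulsed gastruloids, of which 8 of 10 lay under every condition 1 value (p = 0.0280, exact, adjusted p = 0.168). For Differentiation Front cells the medians averaged 5.04% ± 0.329 (SD, n = 4) and 4.58% ± 0.280 (SD, n = 10, p = 0.0539, exact), and for NMP/Caudal Epiblast cells 5.05% ± 0.251 (SD, n = 4) and 4.72% ± 0.392 (SD, n = 10, p = 0.188, exact). Gastruloid 1D had the highest value in both somitic types. Without it the Somite difference was -0.596 in place of -0.888 points, and the Early Somite difference -0.488 in place of -0.727.

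**Figure D5:**
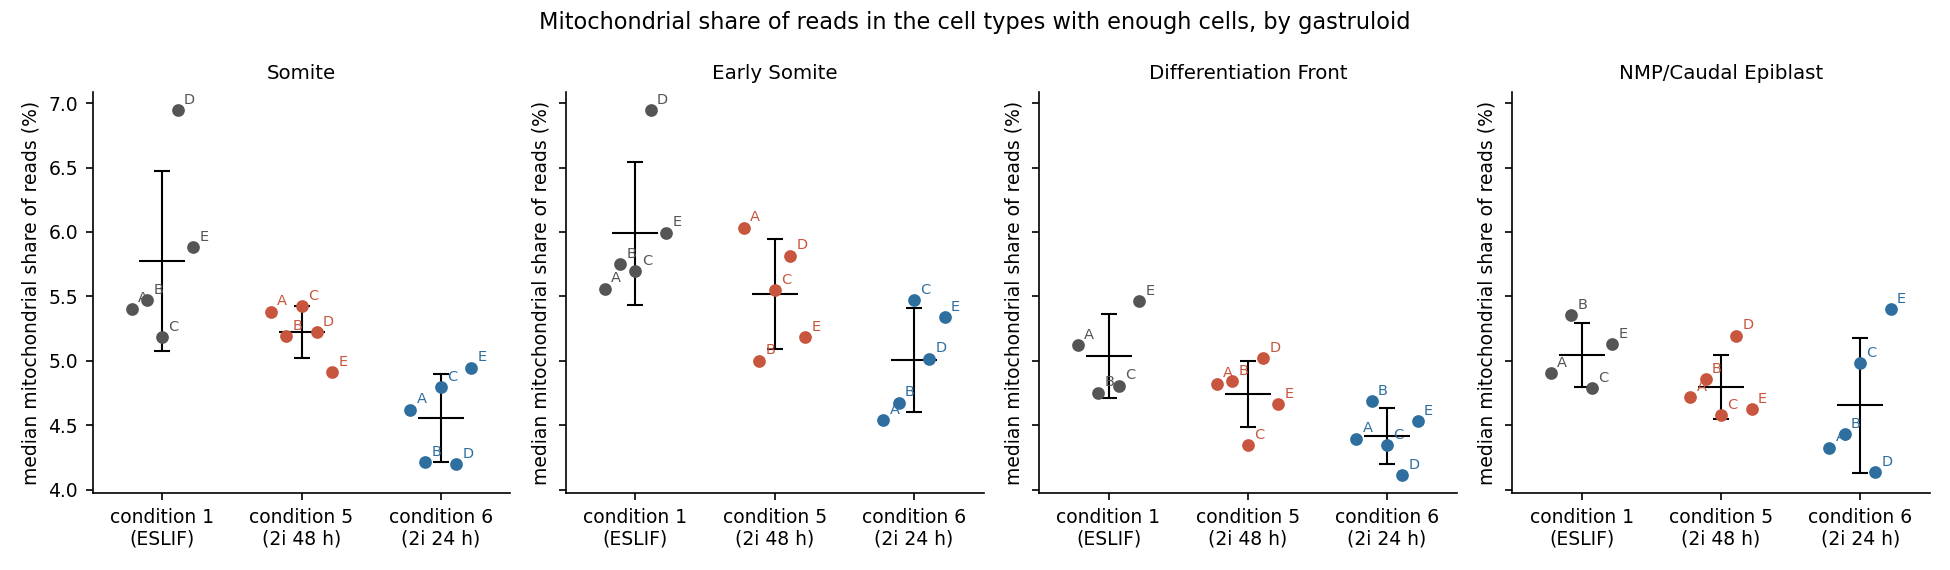
Points are the median mitochondrial share of reads (%) in the cells of 1 type in 1 gastruloid, labelled A to E, with mean and SD as bars (n = 5 per condition, n = 4 for condition 1 in Differentiation Front and NMP/Caudal Epiblast). Condition 6 lies under condition 1 in Somite, Early Somite and Differentiation Front cells, and 1D is highest in both somitic types at 6.94% and 6.95%.

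Whether a difference between ESLIF and pulsed gastruloids was unequal between lineages was asked by subtracting, inside each gastruloid, one lineage from another. Mesoderm, ectoderm and PGC-like cells, which resemble primordial germ cells, gave 18 such differences, of which 0 (0%) were called by the rank-sum test and 0 by the permutation test of means, with 5 unadjusted p under 0.05. The mitochondrial share of ectoderm minus that of PGC-like cells was -0.470 points in 1A, -0.669 in 1D and -0.301 in 1E, the condition 1 gastruloids with at least 10 PGC-like cells. Pulsed gastruloids had -0.262 to -0.00745 points with a median of -0.135 and did not overlap with those 3 (p = 0.00699, the smallest possible for 3 against 10, exact, adjusted p = 0.126). Every difference from PGC-like cells rested on 3 against 10 gastruloids. None of them could pass the adjustment over 18 tests without other small p-values beside it, so the 0 calls cannot decide them. The S score of ectoderm minus that of PGC-like cells was -0.0211 ± 0.00654 (SD, n = 3) and -0.00730 ± 0.00797 (SD, n = 10, p = 0.0140, exact, adjusted p = 0.126), with 9 of 10 pulsed values above those of condition 1. PGC-like cells themselves had a median mitochondrial share of 5.34% in 1A, 5.94% in 1D and 5.41% in 1E. In the pulsed gastruloids it was 4.35% to 5.35%, and 9 of 10 lay under those of condition 1. With a minimum of 5 cells this PGC-like difference was called (exact rank-sum test, p = 0.00133, adjusted p = 0.0240). The ectoderm of the groups differed in makeup, as described above. The parts of ectoderm makeup and of PGC-like cells in these differences were not tested.

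Over all cells of a gastruloid, no phase share was called. The G2M share was 35.6% to 46.0% in condition 1 with a median of 38.7% and 31.4% to 40.9% in the pulsed gastruloids with a median of 35.7%, and the ranges overlapped. The means were 39.5% ± 4.101 (SD, n = 5) and 35.8% ± 2.84 (SD, n = 10, exact rank-sum test, p = 0.0992). Each gastruloid was also weighted to the cell type makeup of all 15, over those types with at least 10 cells in it. The means were then 39.1% ± 1.43 (SD, n = 5) and 36.9% ± 5.71 (SD, n = 10, p = 0.129, exact). Spinal Cord entered this weighting in 5 condition 1 and 0 pulsed gastruloids, and Allantois in 4 and 0. The weighting therefore did not give both groups the same makeup. The unweighted difference was -3.67 percentage points, and -2.04 without 1D, and the weighted one -2.23, and -4.18 without 6B (p = 0.0420, exact, not past the adjusted threshold). Of 6 tests, 0 (0%) were called by either test and none had an unadjusted rank-sum p under 0.05. The S share was 54.9% ± 5.15 (SD, n = 5) and 57.3% ± 2.25 (SD, n = 10).

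The other 7 types had too few cells for a test inside the type, and their pooled values are given as a description. Presomitic Mesoderm cells were 45.1% in G2M in condition 1 (82 cells) and 33.7% in the pulsed gastruloids (481 cells), and PGC-like cells 33.3% (117 cells) and 35.1% (302 cells). Spinal Cord cells were 43.2% in G2M in condition 1 (315 cells) and 51.7% in the pulsed gastruloids (29 cells), but 178 of the 315 came from 1D, and without it condition 1 had 32.8% (137 cells), with 13.6% in 1B to 52.0% in 1A. Endoderm cells were 48.4% (62 cells) and 23.6% (72 cells) in G2M. Only 1A, 1D, 5A and 6E had at least 10 Endoderm cells. Their G2M shares were 56.5% in 1A (23 cells), 57.9% in 1D (19), 7.14% in 5A (14) and 45.5% in 6E (11). Of the pooled Endoderm cells, 4.84% (3 of 62 cells) in condition 1, 5.26% (2 of 38) in condition 5 and 26.5% (9 of 34) in condition 6 were in G1. The condition 6 gastruloids had only 3 to 11 Endoderm cells each. Allantois cells were mostly in G1 in both groups, 66.7% (57 cells) and 61.5% (39 cells), as were 44.3% of the 61 Endothelium cells of the pulsed gastruloids.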

How the data were processed

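Per the sources, the authors trimmed reads with cutadapt 4.1, mapped them with STAR 2.5.3a (versions from the submitters' processing notes) to a strain-masked GRCm38 mouse genome, counted deduplicated reads, and regressed counts, mitochondrial share and phase out before clustering. Their deposited per-cell table was used: total counts (not normalised), genes, the mitochondrial fraction (multiplied to percent here), unitless S and G2M scores deposited by the authors, phase, cell type, germ layer and cluster. Names of 7 types were matched to those of the study by equal cell number.

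Shares, mean scores and median counts, genes and mitochondrial percent were computed per gastruloid (Python 3.11.15, pandas 2.3.3, SciPy 1.17.1). A type entered with at least 10 cells in a gastruloid and was tested when 4 gastruloids of condition 1 and 8 pulsed ones qualified. Groups were compared by the exact two-sided rank-sum test over all 3003 splits (fewer where gastruloids were missing), Bonferroni-corrected within both share families and Benjamini-Hochberg-adjusted within the others, called under 0.05. The test was checked on simulated data. Intervals are 95% Wilson intervals, and 0 cells allow the share of 3; both cover counting error only. Per-gastruloid values are given for called results and the 2 smallest p of families without calls; other results given this way were chosen after their values were seen. Groups, tests and lists were chosen with earlier results of these data known, so patterns already known are no independent support. Alternatives are in the closing section. Listed cells under 500 counts (24) were kept. Cell names were not shared between gastruloids. Doublets could not be called and cells could not be thinned without gene values.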

Additional observations from a re-analysis of the deposited data

Results flagged for a closer look

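In groups of 4 to 10 gastruloids, a value was picked out when its gap to the nearest other exceeded Dixon's 95% critical value. There were 54 groups examined and 6 values picked out. Chance picks about 1 in 20 groups of normally spread values, a rate that does not hold for groups with tied values. Gastruloid 1D accounts for 3 of them: Spinal Cord cells were 58.9% of all its cells and 97.8% of its ectoderm cells, and NMP/Caudal Epiblast cells were 1.10% of its ectoderm cells. Gastruloid 1E accounts for 2, through its single Endothelium cell, at 0.317% of all cells and 0.621% of mesoderm cells. The other 4 of condition 1 had none, so any such cell would have been picked out. The last was the G2M share of Early Somite cells in 5C, 20.8%, against 8.11% to 10.2% in the other 4 gastruloids of condition 5.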

How the results depend on the processing

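The 11 type shares gave 3 calls, and 5 under the permutation test of means, under Benjamini-Hochberg adjustment and with PGC-like cells left out, the gain each time being Presomitic Mesoderm and Allantois. For condition 5 alone or condition 6 alone there were 0, and 0 of the within-lineage shares, because 5 against 5 gastruloids cannot go below p = 0.00794 (exact), which fails the correction for 11 tests. With NMP/Caudal Epiblast counted as mesoderm, the within-lineage calls went from 4 to 2 of 9, Endothelium and Presomitic Mesoderm: the 3 ectoderm shares could not be taken, since no pulsed gastruloid kept 10 ectoderm cells. The 0 calls of phase shares by type became 1 with the permutation test of means, 2 for condition 6 alone (S and G2M in Early Somite) and 4 between the quartiles of counts of a type (9 tests: G1, S and G2M in Somite, S in Early Somite). Phase shares of the same type add up to the whole, so calls within a type are not separate results. The 0 calls of counts, genes and mitochondrial share became 2 for condition 6 alone (mitochondrial share in Somite and Early Somite), 1 with means over cells (Early Somite) and 1 with a minimum of 5 cells (PGC-like, 18 tests). The cause of these changes was not tested. Leaving out 1 gastruloid gave 2 to 4 calls of type shares, 3 to 4 within lineages, 0 to 1 for phase shares, for scores and for quality measures, and 0 elsewhere, and moved the difference in mesoderm spread from -0.00707 to 0.0628. That difference also turned for condition 5 alone (-0.0114) and, chosen after seeing the data like the joining of both somitic types, without 6A and 6B (-0.0261).

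The labels do not say whether the replicate numbers pair gastruloids across conditions. The deviations of 15 same-numbered pairs correlated from -0.481 to 0.232, and 4 exceeded 0.1. Such correlations cannot show whether same-numbered gastruloids shared a batch or culture. With the replicate block, 2 type shares and 3 within-lineage shares were called, Neural Crest (p = 0.0123, exact) dropping out of both, and 0 elsewhere, while the spread difference stayed at 0.0271.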
